A study of Danio rerio with 6 samples.

Results

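The genes around the *dancr* locus are the 40 protein-coding genes of zebrafish chromosome 20 (GRCz10) that start between 21500000 and 25000000 and had a mean of at least 10 counts over 6 RNA-seq libraries. They were taken from 61 annotated features and 45 protein-coding genes in this window, in a table of 31953 genes. *dancr* is a long non-coding RNA gene that hosts small nucleolar RNAs in its introns, and distances were measured from position 23183000, within an annotated *SNORA26* gene. Of the members, 15 start at lower coordinates (the *lnx1* side, which holds *lnx1*, *fip1l1a* and *rasl11b*) and 25 at higher coordinates (the *usp46* side, which holds *usp46*, *spata18*, *sgcb*, *dcun1d4* and *ociad2*). The members just inside the count limit were *esr2a* (mean 12 counts) and *si:dkey-15j16.3* (21.3), and those just outside were *si:dkey-15j16.6* (9.5), *nmu* (5.83), *lrrc66* (5), *si:dkey-273g18.1* (1.5) and *cx52.6* (1.33). All 40 members passed the filter on low counts and entered the test.

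RNA was sequenced from pooled whole wild type AB embryos at 30 hpf (hours post-fertilisation), in 3 libraries of *dancr* crispants and 3 of mock controls. Crispants are F0 embryos, injected at the single cell stage with Cas9 complexed to 4 crRNAs against the *dancr* promoter, and those sequenced were of phenotype classes I and II. Mock controls received the injection mixture without the *dancr* crRNAs. F0 crispants are mosaic, so that cells of one embryo can carry different repair outcomes, and the sequenced RNA is an average over cells, embryos and tissues. In such bulk samples, fewer cells of a type and less RNA per cell cannot be told apart.

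The 4 crRNAs are shown because they define the perturbation. Distances of genes were not measured from their targets. Sequences run 5′ to 3′, and the capitals mark the 10 bases nearest the PAM.
dancr-1: actccccaaaTCATCTGAAG
dancr-2: tctgagccccCTGACTGAAG
dancr-3: tttgcacaatCCCTGAGAGC
dancr-4: aaagcccactATAACTGTTC
Their GC contents are 45%, 60%, 50% and 40%. Their positions were not located here.

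Long non-coding RNA loci are often examined for effects on their neighbours, because transcription, enhancers or the transcript itself can act on genes of the same chromosome. Such effects are usually looked for among the nearest genes. The neighbours of *dancr* are genes of several kinds. They include a ubiquitin ligase (*lnx1*), a deubiquitinating enzyme (*usp46*), a Ras-like small GTPase (*rasl11b*), a dystrophin-complex subunit (*sgcb*), growth factor receptors (*kdr*, *kita*, *pdgfra*) and a homeobox regulator of brain patterning (*gsx2*).

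The libraries held 33841805 to 40515803 counts. Mock control replicate 3 stood apart, with a TMM scaling factor of 0.749 against 0.988 to 1.14 in the other 5 libraries and 33.4% of its counts on its 100 most counted genes against 24.2% to 26.9%. Over the 20812 tested genes, its log2 deviation from the other libraries had a Spearman correlation of -0.33 with gene length, as a description. Among the members, *kdr*, *clocka*, *bach2b*, *kita*, *sgcb* and *usp46* were over 1 log2 unit low in this library, and *SCFD2 (2 of 2)*, *LRG1 (1 of 3)* and *gsx2* were over 1 log2 unit high. Values are therefore given with and without it, and its part in each result beyond that was not tested.

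Compared as groups, crispants had lower values than mock controls for almost all members of the *usp46* side, and not so on the *lnx1* side. The log2 fold change, crispant over mock control, was below 0 for 25 of 25 members on the *usp46* side, with a median of -0.38 and a range of -1.21 to -0.09. On the *lnx1* side it was below 0 for 10 of 15 members, with a median of -0.11. Of all tested genes, 54.5% had a value below 0, and their median was -0.04. Without mock control replicate 3 the *usp46* side had 22 of 25 members below 0 with a median of -0.41, the *lnx1* side had 7 of 15 with a median of 0.01, and 48.8% of all genes were below 0. The 3 exceptions on the *usp46* side were then *zar1*, *anapc4* and *ginm1*. In the 9 pairs of 1 crispant and 1 mock library, 15 to 24 of the 25 *usp46*-side members were lower in the crispant. Against mock control replicate 3 they were 16, 15 and 16 for crispant replicates 1, 2 and 3. On the *lnx1* side 6 to 10 of 15 were lower, and of all tested genes 49.1% to 52.3%.

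**Figure D1:**
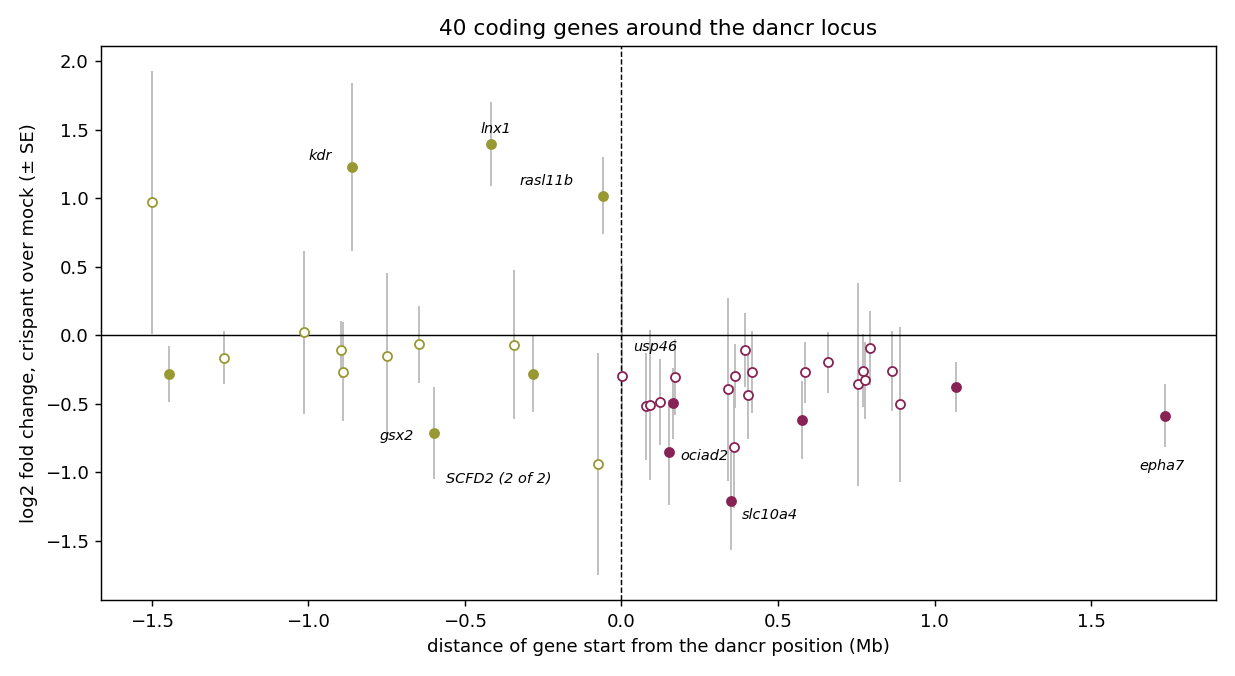
The log2 fold change of each of the 40 members (crispant over mock control, edgeR; bars are standard errors; 3 libraries against 3) is plotted against the distance of its start from the *dancr* position, with filled circles for members whose groups do not overlap, *lnx1*-side members in olive and *usp46*-side members in purple. All 25 points right of the dashed line lie below 0, and the highest 4 points lie left of it.

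No single member was called, which took a Benjamini-Hochberg adjusted p no higher than 0.05 together with a log2 fold change of 1 or more, up or down. The test was the quasi-likelihood test of edgeR, and it called 0 of the 20812 genes (0.0%), of which 1142 had an unadjusted p below 0.05. At an unadjusted p below 0.05, 2 members were higher (*lnx1* and *rasl11b*) and 2 lower (*slc10a4* and *epha7*), where 3.01% of all genes were higher and 2.47% lower. The 3 crispant libraries lay entirely above the 3 mock libraries for 3 members (*kdr*, *lnx1* and *rasl11b*), against 6.5% of all genes. They lay entirely below for 9 members, 3 on the *lnx1* side (*syne2a*, *gsx2*, *SCFD2 (1 of 2)*) and 6 on the *usp46* side (*ociad2*, *ociad1*, *slc10a4*, *ZNF507 (3 of 11)*, *map3k7*, *epha7*), against 5.44% of all genes. DESeq2 on the same filtered counts called 2 members, *lnx1* and *rasl11b*, and 0.769% of all genes. Limma-voom, when each library was weighted by its quality, called these and *slc10a4*, and 1.56% of all genes.

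The 2 members with the lowest p values were higher in crispants and lie on the *lnx1* side. *lnx1* (ENSDARG00000043323, plus strand, 22766860 to 22841538) encodes an E3 ubiquitin ligase known in mammals to act on the cell fate determinant Numb. It had 25.4, 11.2 and 16.2 CPM (reads scaled to a common TMM-adjusted library total) in mock control replicates 1, 2 and 3 and 46.8, 46.8 and 45.2 CPM in crispant replicates 1, 2 and 3. The crispant libraries were thus nearly equal and all above the mock libraries, which ranged more widely. The log2 fold change of 1.39 had a standard error of 0.30 (adjusted p = 0.479, edgeR) and became 1.36 without mock control replicate 3. DESeq2 gave it an adjusted p of 0.013. Its 3′ end shares 1420 bases with *fip1l1a* on the opposite strand. *fip1l1a*, a subunit of the complex that cleaves and polyadenylates mRNA 3′ ends, had 1.69, 0.886 and 1.96 CPM in mock controls and 1.14, 2.35 and 0.825 CPM in crispants. Its groups overlapped, at -0.07 ± 0.54 (SE) on the log2 scale.

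*rasl11b* (ENSDARG00000015611, minus strand, 23123885 to 23127123), a Ras-like small GTPase gene, has its lower coordinate 59.1 kb from the position. By that coordinate, from which all distances were taken, it is the nearest coding neighbour on the *lnx1* side. It had 5.82, 4.41 and 6.65 CPM in mock controls and 11.4, 11.4 and 11.3 CPM in crispants. Every crispant library was above every mock library, with a ratio of means of 2.02. On the log2 scale the difference was 1.02 ± 0.28 (SE; adjusted p = 0.612 with edgeR and adjusted p = 0.031 with DESeq2), and 1.17 without mock control replicate 3. The whole gene lies within *SCFD2 (1 of 2)*, a Sec1 family domain gene annotated on the opposite strand, which was at 7.40, 8.42 and 8.16 CPM in mock controls and 5.43, 7.20 and 7.11 CPM in crispants. That host gene was thus lower in each crispant library, at -0.28 ± 0.28 (SE) on the log2 scale, while the gene inside it was higher. The gap between the host gene's groups was small, 7.20 against 7.40 CPM. The library kit marks strand, and whether the counting used it is not given in the sources used here. The partial copy *SCFD2 (2 of 2)*, which overlaps the first by 13924 bases, had 2.35 CPM in mock control replicate 3 and at most 1.02 CPM in the other libraries, and its log2 fold change was -0.94 with all libraries and 0.12 without that one.

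**Figure D2:**
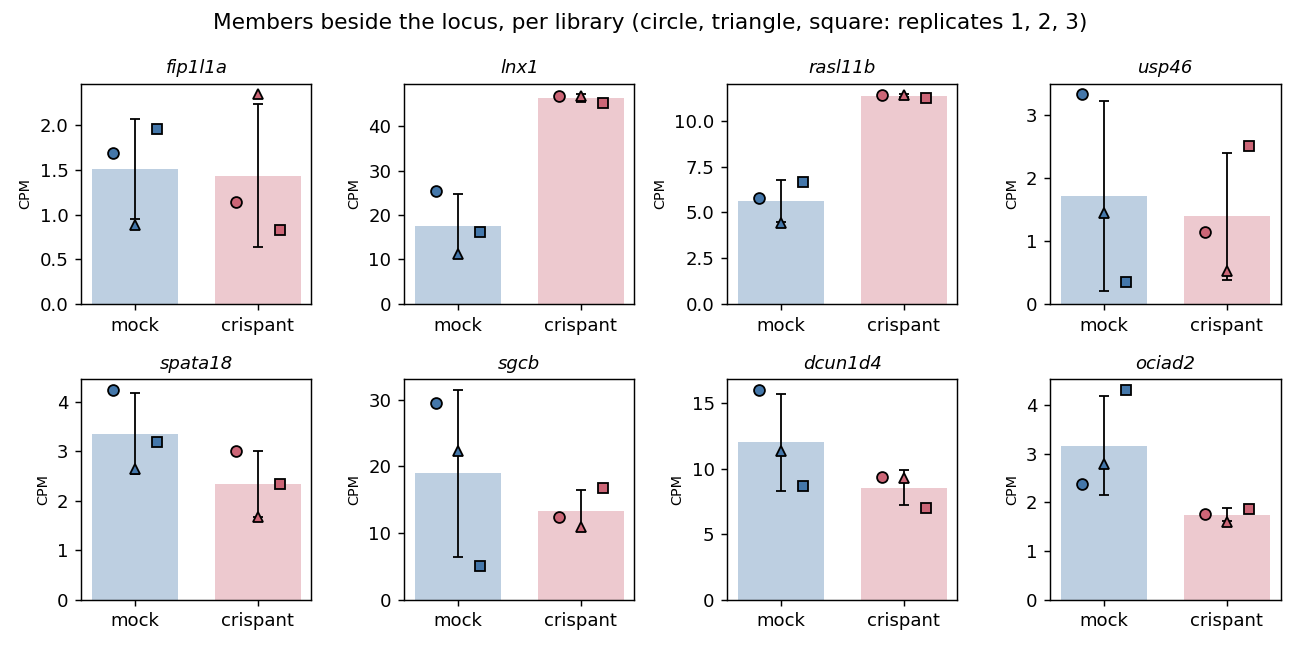
CPM of 8 genes beside the locus is shown in each library (markers are replicates, bars are group means and whiskers are the SD, n = 3; each panel has its own axis from 0). The *lnx1* and *rasl11b* crispant libraries lie close together above the mock libraries, the *ociad2* crispant libraries lie below them, and the groups of the other 5 genes overlap.

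Farther out on the *lnx1* side, *kdr*, a receptor for vascular endothelial growth factor, had 10.9, 14.5 and 1.89 CPM in mock controls and 27.7, 18.4 and 17.9 CPM in crispants. The low mock value came from replicate 3, and the log2 fold change was 1.23 with that library (standard error 0.61, adjusted p = 0.978) and 0.76 without it. Summed endothelial markers, a list of 7 other genes of which none was at 0 throughout, ran from 178 to 227 CPM in mock controls and from 175 to 198 CPM in crispants, and their part in the *kdr* values was not tested. The neighbouring receptor genes overlapped between groups. *kita*, the Kit receptor of pigment cells, had 12.1, 9.38 and 2.03 CPM in mock controls and 5.92, 4.87 and 10.4 CPM in crispants, and *pdgfra* had 110, 107 and 56.2 CPM against 94.0, 73.2 and 94.6 CPM. Summed pigment cell markers ran from 612 to 1018 CPM in mock controls and from 389 to 743 CPM in crispants. Of these markers 8 of 9 had a log2 fold change below 0, as had 54.5% of all tested genes. Their median was -0.54, and -0.49 without mock control replicate 3. Their part in the *kita* values was not tested.

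*gsx2* had 10.7, 13.6 and 23.3 CPM in mock controls and 9.82, 8.52 and 10.7 CPM in crispants. The gap between the lowest mock and the highest crispant library was small, and its log2 fold change moved from -0.71 to -0.31 without mock control replicate 3. *tmem165*, a Golgi membrane protein gene, was at 48.5, 48.0 and 65.8 CPM in mock controls and at 50.2, 56.4 and 44.3 CPM in crispants (log2 fold change -0.11, standard error 0.21). *esr2a*, an oestrogen receptor gene, had the fewest counts of any member and was at 0.97 ± 0.96 (SE) on the log2 scale.

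The *usp46* side began at the locus itself. *usp46* (ENSDARG00000045343, plus strand, 23184700 to 23212627), which encodes a deubiquitinating enzyme, starts 1.70 kb from the position. It had 3.32, 1.43 and 0.350 CPM in mock controls and 1.14, 0.525 and 2.50 CPM in crispants. Its groups overlapped over nearly their whole range. The log2 fold change of -0.30 had a standard error of 0.82, and it ran from -1.04 to 0.62 with each library left out in turn, so that no direction could be read for the gene nearest the position.

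The next 5 members had log2 fold changes from -0.85 to -0.49. *spata18*, a gene of mitochondrial quality control in mammals, had 4.24, 2.63 and 3.19 CPM in mock controls and 3.01, 1.67 and 2.33 CPM in crispants (log2 fold change -0.52, standard error 0.39). *sgcb*, which encodes the beta subunit of the sarcoglycan complex of muscle membranes, had 29.5, 22.2 and 5.11 CPM in mock controls and 12.4, 10.9 and 16.8 CPM in crispants. Its groups overlapped only through mock control replicate 3, and its log2 fold change went from -0.51 to -0.94 without that library (adjusted p = 0.214, edgeR) and to -0.038 without mock control replicate 1. Summed markers of skeletal muscle, where *sgcb* acts, ran from 23298 to 40707 CPM in mock controls and from 19709 to 24238 CPM in crispants. The highest mock sum was that of replicate 3. Of these markers 10 of 10 had a log2 fold change below 0, and none was at 0 CPM throughout. The median of the markers was -0.64, and -0.26 without mock control replicate 3. Their part in the *sgcb* values was not tested. *dcun1d4*, a gene for attaching the ubiquitin-like protein Nedd8 to cullins, had 16.0, 11.3 and 8.65 CPM in mock controls and 9.36, 9.30 and 7.01 CPM in crispants (log2 fold change -0.49, standard error 0.31). Its groups did not overlap without mock control replicate 3, at -0.66, and its value was -0.23 without mock control replicate 1.

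*ociad2* and *ociad1* lie side by side and encode OCIA domain proteins of internal membranes. *ociad2* had 2.38, 2.79 and 4.31 CPM in mock controls and 1.76, 1.60 and 1.87 CPM in crispants. *ociad1*, expressed at a higher level, had 39.0, 34.4 and 61.9 CPM in mock controls and 28.8, 32.9 and 34.2 CPM in crispants. In both genes every crispant library was below every mock library, for *ociad1* only by 34.2 against 34.4 CPM. Mock control replicate 3 was the highest library in both genes. Their log2 fold changes were -0.85 (standard error 0.38) and -0.50 (standard error 0.26), and -0.55 and -0.18 without that library.

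*slc10a4* (ENSDARG00000009131, minus strand, 23532385 to 23541855), a relative of the bile acid transporters that is found in synaptic vesicles in mammals, had the lowest value of the 40. It had 5.13, 5.21 and 4.76 CPM in mock controls and 2.17, 1.52 and 2.84 CPM in crispants. The mock libraries were close together and all above the crispants. The difference on the log2 scale was -1.21 ± 0.36 (SE; adjusted p = 0.666 with edgeR and adjusted p = 0.079 with DESeq2), and -1.23 without mock control replicate 3. Its 5′ end overlaps *LRG1 (1 of 3)* by 222 bases on the opposite strand, and that gene was at -0.81 ± 0.45 (SE) on the log2 scale. Summed neuron markers ran from 734 to 912 CPM in mock controls and from 559 to 674 CPM in crispants. Of these markers 6 of 6 had a log2 fold change below 0, with a median of -0.31, and -0.32 without mock control replicate 3. Among them *snap25a* lies on chromosome 20, 11.8 Mb after the locus. The part of neurons in the *slc10a4* values was not tested.

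Members far from the locus had values of the same kind. *epha7*, an ephrin receptor gene at 1736 kb and the farthest member, had 35.7, 44.7 and 32.5 CPM in mock controls and 25.1, 29.3 and 20.9 CPM in crispants (log2 fold change -0.59, standard error 0.23, adjusted p = 0.826). *map3k7*, the kinase Tak1 of inflammatory and TGF-beta signalling, at 1069 kb, had 76.0, 61.5 and 63.7 CPM against 55.8, 49.2 and 50.0 CPM (log2 fold change -0.38, standard error 0.18). Neither gene's groups overlapped, and both lie over 1 Mb from the position. *ZNF507 (3 of 11)* also had groups that did not overlap (-0.62, standard error 0.28). *palld*, an actin-binding protein gene, and *ginm1*, the other named members of this side, had log2 fold changes of -0.27 and -0.26 and overlapping groups. These were -0.48 and 0.046 without mock control replicate 3, and without mock control replicate 2 they were -0.076 and -0.40. The other 12 members of this side (*fryl*, *zar1*, *slain2*, *anapc4*, *cbr4*, *nek1*, *sh3rf1*, *si:dkey-15j16.3*, *katna1*, *mdn1*, *casp8ap2* and *bach2b*) had overlapping groups with all 6 libraries and log2 fold changes from -0.50 to -0.09. For 6 of them, *fryl*, *slain2*, *nek1*, *mdn1*, *casp8ap2* and *bach2b*, the overlap came from mock control replicate 3 alone.

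**Figure D3:**
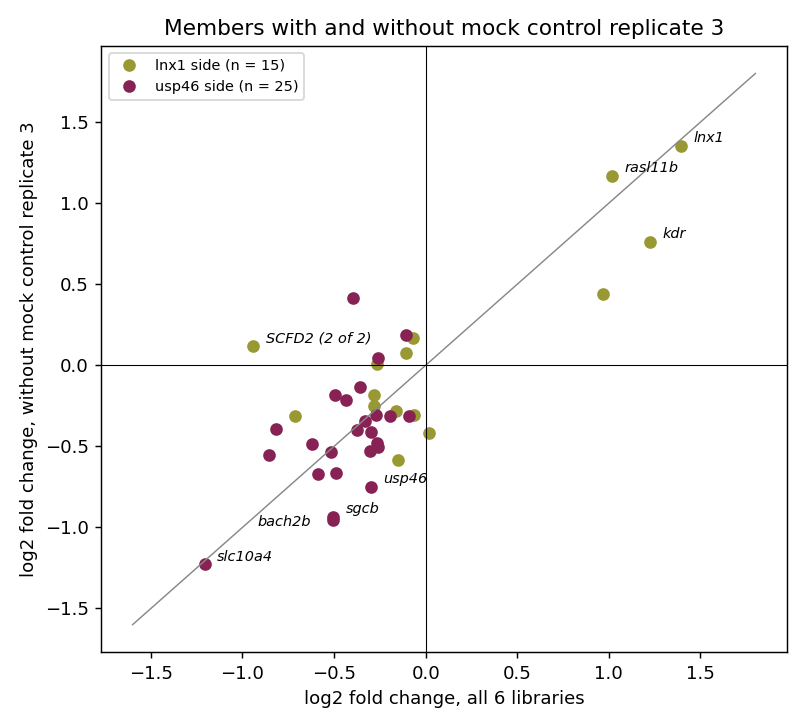
The log2 fold change of each member with all 6 libraries is plotted against its value without mock control replicate 3, with the line of equality. *lnx1*, *rasl11b* and *slc10a4* lie near the line, *sgcb* and *bach2b* were further below 0 without that library, *kdr* was nearer 0, and *SCFD2 (2 of 2)* changed sign.

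The size of a member's log2 fold change was read against its distance, as a description. The median size was 0.49 for the 19 members within 0.5 Mb and 0.27 for the 21 members beyond it, and the Spearman correlation of size with distance was -0.30 over the 40 members. Without mock control replicate 3 the medians were 0.48 and 0.31, and the correlation was -0.22. Over all tested genes the median size with all 6 libraries was 0.25. It was 0.44 over the chromosome 20 genes after the locus and 0.22 over those before it. Size also differed with the number of counts. Before the locus it was 0.37 in the lowest and 0.14 in the highest of 3 classes of mean count. After the locus it was 0.49 and 0.44. The part of counts in the difference between near and far members was not tested. Of the 4 members with sizes above 1, *lnx1*, *rasl11b* and *slc10a4* lie within 0.5 Mb and *kdr* lies beyond it. On the *lnx1* side alone the correlation was -0.23 over 15 members, and -0.11 without mock control replicate 3. On the *usp46* side alone it was -0.31 over 25 members, and -0.29 without that library. The signed median of that side was -0.50 within 0.25 Mb (7 members), -0.40 from there to 0.5 Mb (7), -0.27 to 1 Mb (9) and -0.48 beyond 1 Mb (2), and without mock control replicate 3 it was -0.55, -0.39, -0.31 and -0.53.

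Whether the lower values of the *usp46* side ended with the window was examined over the rest of chromosome 20, a comparison chosen after seeing the data. They did not end there. The 514 tested genes that start after the locus outside the window had a median log2 fold change of -0.42, with 437 of them below 0, close to the 25 members. The 283 tested genes before the locus outside the window had a median of -0.01, with 145 of them below 0. The 19972 genes of other chromosomes and scaffolds had a median of -0.03. Without mock control replicate 3 these medians were -0.34, 0.03 and 0.02.

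In steps of 5 Mb, the median before the locus ran from -0.08 to 0.05, and after it from -0.47 to -0.34, in each of the 7 steps to the last gene at 32.2 Mb. The steps were counted from the locus, so that a step edge falls there by construction. The step just before the locus had a median of -0.08 (66 genes) and the step just after it -0.40 (112 genes). Without mock control replicate 3 these 2 steps had medians of -0.001 and -0.34. The 25 tested genes nearest the locus on the side before it had a median of -0.27, with 18 of them below 0, and of -0.12, with 13 below 0, without mock control replicate 3. The 25 nearest after it had medians of -0.36 and -0.40, with 24 and 21 below 0.

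**Figure D4:**
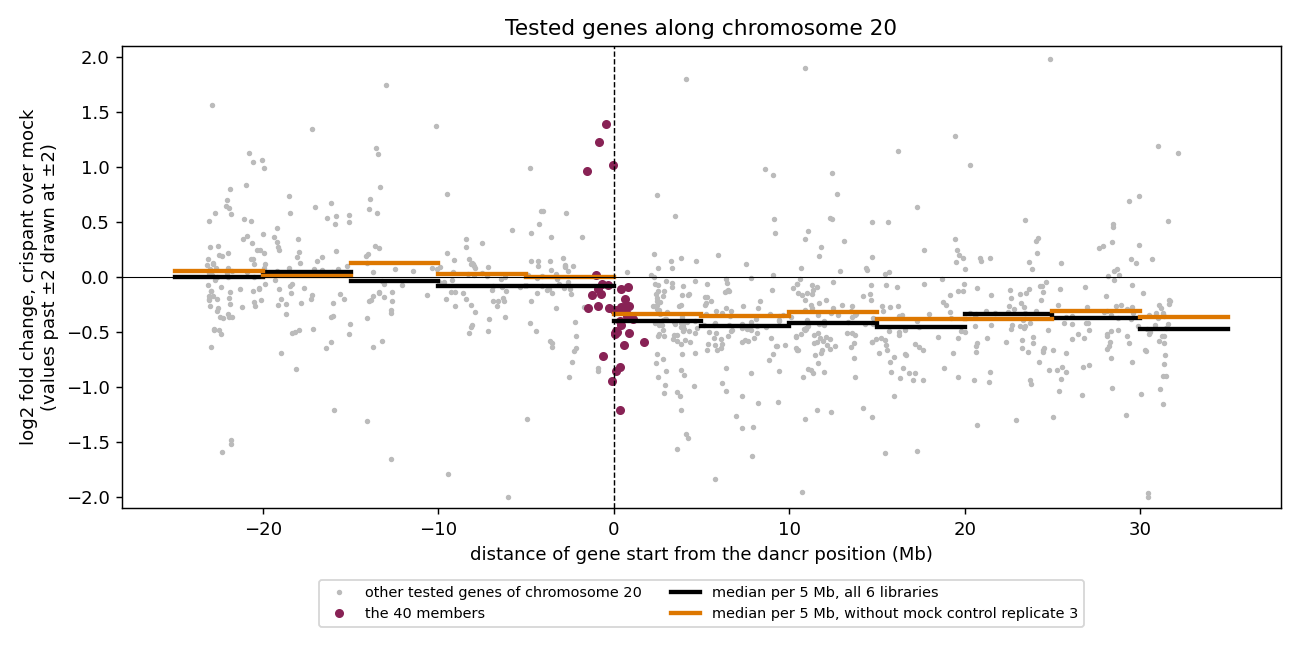
Each tested gene of chromosome 20 is plotted by the distance of its start from the *dancr* position against its log2 fold change, with the 40 members in purple and the median of each 5 Mb step as a line, with all 6 libraries in black and without mock control replicate 3 in orange. Both lines are near 0 left of the dashed line and lie between -0.47 and -0.30 right of it.

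The position of the change was also sought without using the locus, by finding on each chromosome the single boundary that left the smallest summed deviation from the medians of its 2 sides, with at least 25 genes on each side. On chromosome 20 this boundary fell between *six1b* and *six6b*, 2583 to 2552 kb before the locus and 28 tested genes away, with medians of 0.001 before it and -0.41 after it. It lowered the summed deviation by 10.3%, and a boundary placed at the locus lowered it by 10.2%, so that the data did not tell these positions apart. On the other 24 chromosomes the best boundary lowered it by at most 3.36%. The medians of the 2 sides lay further apart on chromosome 7, at -0.03 before its boundary and 1.07 over the 27 genes after it. That difference was upward and lowered the summed deviation by 2.47%. Without mock control replicate 3 the chromosome 20 boundary fell between *xrcc3* and *brf1b*, 2186 to 2181 kb before the locus. It lowered the summed deviation by 10%, the same as one at the locus, against at most 3.58% elsewhere, on chromosome 7. The chromosome 7 medians were then -0.01 and, over 26 genes, 1.51.

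The same difference was present in each library. The median log2 deviation from the 6-library mean of the 514 genes after the locus, minus that of genes of other chromosomes, was 0.18, 0.16 and 0.14 in mock control replicates 1, 2 and 3 and -0.20, -0.15 and -0.16 in crispant replicates 1, 2 and 3. For the *usp46*-side members it was 0.25, 0.21 and 0.11 in mock controls and -0.21, -0.26 and -0.17 in crispants. In both sets every crispant library was below every mock library, mock control replicate 3 included. The group difference over the 514 genes was -0.34, as a description only, since the comparison was chosen after seeing the data. For the 283 genes before the locus the group difference was 0.03. The values of the *lnx1*-side members were -0.10, 0.17 and -0.22 in mock controls and -0.05, -0.01 and -0.04 in crispants, which overlap.

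**Figure D5:**
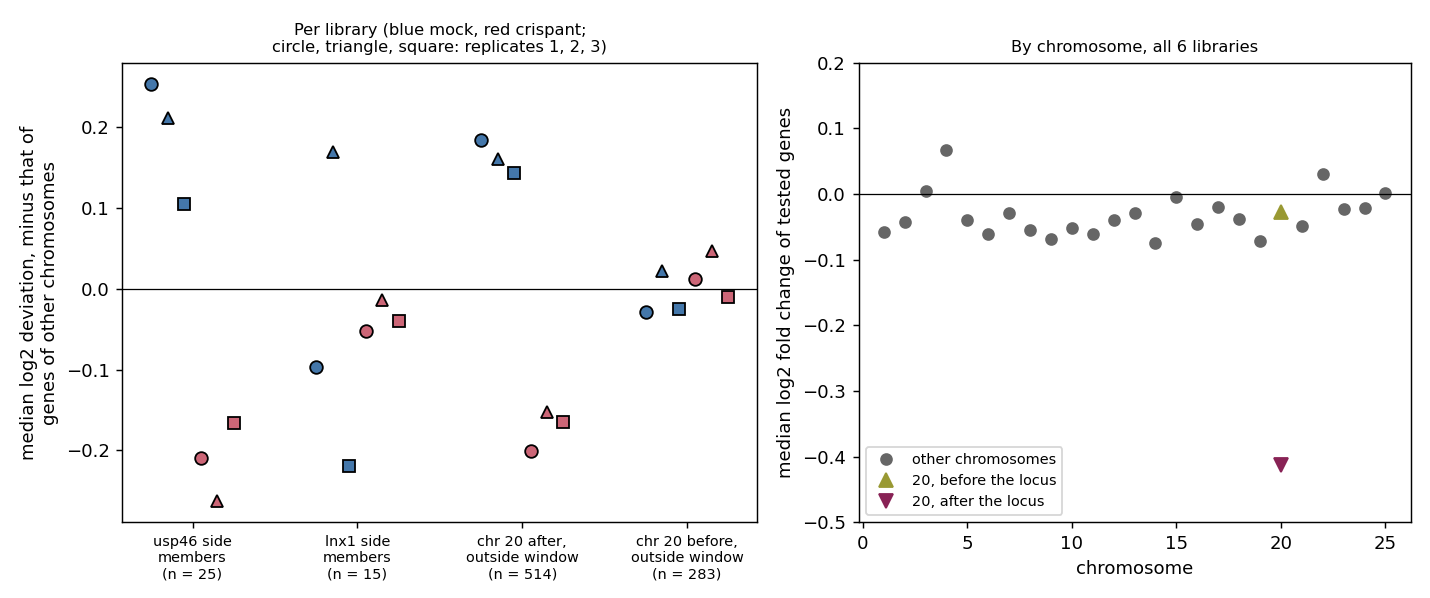
Left, the median log2 deviation of each library (blue, mock control; red, crispant; the marker gives the replicate) minus that of genes of other chromosomes is shown for 4 sets of genes, and the groups separate only for the *usp46*-side members and the genes after the locus. Right, the median log2 fold change of the tested genes of each chromosome is shown with chromosome 20 split at the locus, where the genes after the locus are at -0.41 and all other points lie between -0.08 and 0.07.

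Taken whole, no other chromosome showed a median of this size. Over the other 24 chromosomes the medians ran from -0.08 to 0.07, and chromosome 20 as a whole had -0.27. As a ratio of linear values, the median of -0.41 over all 540 tested genes after the locus is 0.751, and the authors' FPKM values gave a median ratio of 0.767 after the locus, 0.984 before it and 0.980 on other chromosomes (with 0.1 added to each group mean). The difference was present at every level of expression, with medians of -0.36, -0.35 and -0.43 in the lowest, middle and highest of 3 classes of mean count, and at every gene length, with -0.48, -0.37 and -0.37 in 3 classes from short to long. Without mock control replicate 3 the count classes had -0.37, -0.34 and -0.34. The length classes then had -0.29, -0.29 and -0.40, so that the short genes were no longer the lowest. Before the locus the same classes ran from -0.15 to 0.04 with all 6 libraries, and from -0.05 to 0.10 without that one.

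These genes made up 2.59% of the genes tested, 14% of the genes that were lower at an unadjusted p below 0.05 (72 of 515) and 11.5% of the genes whose groups did not overlap with crispants lower (130 of 1133). Without mock control replicate 3, 14 of the 25 *usp46*-side members had crispants entirely below the mock controls, against 15.4% of all genes, and 9 of 25 were lower at an unadjusted p below 0.05, against 5.28%. No member passed the threshold in the edgeR fit without that library, which called 0.0935% of all genes. DESeq2 without it called 3 members (*lnx1*, *rasl11b* and *slc10a4*), among 300 of 21388 genes. The values of the *usp46* side were thus not particular to genes beside the locus, and only RNA counts were analysed here.

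Against this level, *slc10a4* (-1.21), *ociad2* (-0.85) and *LRG1 (1 of 3)* (-0.81) were the members furthest below the median of the genes after the locus, each by less than 1 log2 unit. *lnx1*, *rasl11b* and *kdr* were far from the median of the genes before the locus, which was -0.03. The other members of the *lnx1* side, apart from *gsx2*, *SCFD2 (2 of 2)* and *esr2a*, had log2 fold changes from -0.28 to 0.02, among them *syne2a*, *daam1b*, *clocka* and *srd5a3*.

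Partners of the members' proteins and paralogues of the members were taken from 6 lists of 64 entries, of which 51 were tested. None passed the threshold, which 0 of the 20812 tested genes passed. At an unadjusted p below 0.05, 2 of the 51 were lower, where 2.47% of all genes were lower. These were *dtnba*, a dystrobrevin of the dystrophin complex that also holds the sarcoglycans, and *cpsf3*, the endonuclease of the complex that Fip1 belongs to. *dtnba* had 139, 113 and 109 CPM in mock controls and 63.4, 76.0 and 71.8 CPM in crispants (log2 fold change -0.77, standard error 0.19, adjusted p = 0.524, edgeR). *cpsf3* had 129, 125 and 175 CPM against 107, 104 and 86.2 CPM (-0.53, standard error 0.21, adjusted p = 0.850). Both lie on chromosome 20 after the locus, at 24.2 Mb and 6.53 Mb, as do 4 of the 51 genes in all, the others being *wdr20b* (-0.25) and *cpsf2* (-0.48). The list medians ran from -0.28 for the sarcoglycan and dystrophin complex to 0.13 for the Rasl11 and Scfd family, and these 2 were -0.50 and 0.05 without mock control replicate 3.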

How the data were processed

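Poly(A)-selected RNA of whole zebrafish embryos was sequenced. The authors used HISAT2 and the GRCz10/danRer10 genome for alignment (versions not given in the sources used here). The authors deposited raw counts per gene, which were used here without change, and FPKM values, used for levels and as a check. They also deposited a mean signal per group and the log2 fold changes, p-values and adjusted p-values of their own DESeq2 comparison, none of which was used. Of the columns per library, 0 were left unused.

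Libraries were grouped by their labels, 3 against 3. The study calls them biological replicates, and nothing says that they came from separate clutches, so that p-values measure the spread between these samples. TMM scaling and the quasi-likelihood test of edgeR 4.0.16 (no covariate, R 4.3.3) were applied after filterByExpr (minimum count 10), which kept 20812 genes. Standard errors came from the log2 fold change and F statistic. Library totals and members' counts set the precision, and values under about 1 CPM rest on few reads. Alternatives were DESeq2's size factors, no filter, DESeq2 1.42.0, limma-voom (limma 3.58.1), with and without sample quality weights, a replicate block, each library left out, and an offset that takes out a library's slope on gene length. The length offset, the side counts and the comparison along chromosome 20 were added after seeing the data. On simulated counts with 200 genes changed 4-fold, edgeR recovered 66.5% of them. The changed genes were drawn from those with a mean log2 CPM above 1, and no member changed as much as 4-fold. The rate therefore does not describe how often changes of the members' size would be called. Library deviations used log2(CPM + 0.5).

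The members and lists were chosen with earlier results of these data known. Named were the 8 listed genes, the 5 nearest on each side, up to 10 with the largest change among those whose groups do not overlap, the 5 with the highest mean FPKM, and *kita*, *pdgfra*, *kdr* and *gsx2*. Other genes named were chosen after their values were seen. All 40 member identifiers matched the table of gene names. Coordinates are those of the authors' table.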

Additional observations from a re-analysis of the deposited data

How the results depend on the processing

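With single libraries left out, 22 to 25 of the 25 *usp46*-side members and 7 to 10 of the 15 *lnx1*-side members were below 0, and 23 to 25 and 9 to 10 under the other alternatives. The median of the 514 genes after the locus ran from -0.43 to -0.34 with single libraries left out, against -0.016 to 0.032 for the 283 genes before it. These medians were -0.38 and 0.030 with a replicate block, -0.37 and 0.032 with limma-voom, -0.36 and 0.022 with its quality weights, and -0.49 and -0.084 with the length trend removed, a setting that moved the median of all genes to -0.10. The replicate numbers did not pair the libraries (correlations of same-numbered deviations 0.23, -0.06 and -0.12), and the block called 0 members.

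DESeq2 called 2 members and put 7 at an unadjusted p below 0.05, beside 160 and 1370 of all 20812 genes. Voom with quality weights gave 3 and 19 members, beside 324 and 3977 of all genes. The length setting gave 0 and 7 members, beside 2 and 1199 of all genes. In edgeR with single libraries left out, 0 members were called, 3 to 12 had an unadjusted p below 0.05 and 12 to 22 did not overlap, both highest without mock control replicate 3. Of all genes, 634 to 2398 had an unadjusted p below 0.05 in these fits, the most also without that library. Without it, 2945 of the 20812 genes had crispants entirely higher and 3211 entirely lower, against 1352 and 1133 with all 6 libraries. The members' median ran from -0.35 to -0.23 (-0.38 with the length trend removed), and the difference in size between near and far members from 0.17 to 0.27 (0.16). DESeq2 called 1 member without mock control replicate 1, 3 without mock control replicate 3 and 0 without each other library, and the cause was not tested. Of all genes it called 127, 212 and 300 without mock control replicates 1, 2 and 3. It called 53 to 91 with a crispant library left out, and 160 with all 6 libraries.

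Among the 22 genes named by the rule, single values that changed sign were those of *tmem165* (0.061 with quality weights; -0.19 to 0.073 with libraries left out), *kita* (0.071 with voom, 0.0075 with the block; -0.58 to 0.30), *fip1l1a* (0.31 with quality weights; -0.59 to 0.21), *ginm1* (0.13 with quality weights; -0.40 to 0.046), *pdgfra* (-0.30 to 0.091), *SCFD2 (2 of 2)* (-1.55 to 0.12) and *usp46* (-1.04 to 0.62). Other members that changed sign in at least one fit included *clocka*, *srd5a3*, *zar1*, *anapc4*, *si:dkey-15j16.3* and *mdn1*. With libraries left out, *spata18* ran from -0.74 to -0.30 and *ociad1* from -0.66 to -0.18. Depth limits members under about 1 CPM, whose standard errors reach 0.96.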
